A study of Mus musculus with 2 samples.

Results

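Malat1, Neat1, Miat, Snhg11, Meg3, Rian, Mirg and Pantr1 are long noncoding RNAs, transcripts that act as RNA and are not known mainly as messengers, and all 8 were read in mouse cerebral cortex. They were taken by gene symbol, are 8 of the 55536 annotated genes in the gene tables, and have 74 of the 141862 annotated transcripts. They were chosen by their deposited TPM and counts in these same 2 libraries, as abundant noncoding RNAs with earlier results known, so their levels and differences below are descriptions and carry no test. Total RNA was taken from the cortex of the left hemisphere in female mice of the strain B6CASTF1/J, the F1 hybrid of C57BL/6J and CAST/EiJ, aged 8 to 10 months and untreated as far as the labels say. There was 1 group with 2 libraries, replicate 2 from animal 5 and replicate 1 from animal 1, each made from 300 ng of RNA reduced in ribosomal RNA. The labels give both animals the same donor entry, so that they are separate animals rests on their numbers alone. With 1 library for each animal, a difference between the libraries is a difference between these 2 pieces of tissue as prepared and sequenced, and no test across animals can be made.

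Several of these RNAs stay in the nucleus. Malat1 gathers in nuclear speckles, bodies rich in splicing factors, and Neat1 is the RNA scaffold around which paraspeckles form. Miat, also called Gomafu, is a spliced neuronal RNA that is kept in the nucleus and carries repeats bound by splicing factors. Meg3, Rian and Mirg are expressed from the maternal chromosome of the imprinted Dlk1-Dio3 domain, whose protein-coding genes Dlk1, Rtl1 and Dio3 are expressed mainly from the paternal one. Rian is the host of box C/D small nucleolar RNAs (snoRNAs) and Mirg is the host of a large microRNA cluster. Snhg11 is a snoRNA host gene, and Pantr1 lies beside the neuronal transcription factor gene Pou3f3 on the opposite strand.

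Malat1 and Neat1 are neighbours on chromosome 19, and the ends of their long transcripts share a feature that is known to fold into a triple helix and to protect an RNA that ends without a poly(A) tail. The stretches below show it, read 5′ to 3′ from the GENCODE M21 transcripts. Capitals mark 3 blocks, a pair that is T-rich and 1 that is A-rich, which are the exact matches of at least 11 nt between the last 150 nt of Neat1-201 and the last 400 nt of Malat1-201.
Malat1-201, chr19:5795982-5796071 (mm10, minus strand): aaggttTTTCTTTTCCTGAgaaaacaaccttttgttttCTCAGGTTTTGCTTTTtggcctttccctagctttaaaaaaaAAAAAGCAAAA
Neat1-201, chr19:5824708-5824803 (mm10, minus strand): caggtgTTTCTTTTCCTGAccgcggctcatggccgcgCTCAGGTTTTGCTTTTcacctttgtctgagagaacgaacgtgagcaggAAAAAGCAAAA
The blocks were taken from these 2 transcripts, so both hold them by definition. No other of the 141767 transcripts searched held exact copies of all 3 in this order within 150 nt. Inexact copies were not sought, so the search does not show that the element is confined to this pair. In the annotation Neat1-201 ended at the last base of the element, whereas Malat1-201 ran 292 nt past it. The second sequence class shown is the ACTAAC repeat of Miat, which matches the intron branch-point sequence recognised by the splicing factor Sf1. The stretch shown is the densest part of the last exon of Miat-201, with ACTAAC in capitals.
Miat-201, chr5:112217309-112217454 (mm10, minus strand): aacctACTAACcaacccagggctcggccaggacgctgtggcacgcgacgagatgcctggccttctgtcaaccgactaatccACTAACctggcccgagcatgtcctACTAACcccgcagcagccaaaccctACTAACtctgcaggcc
Miat-201 held ACTAAC 11 times on its own strand, 4 of them in this stretch, or 1.26 per 1000 nt. That was the highest density among 248 noncoding transcripts of 5000 nt or more, whose median was 0.13, and the highest outside Miat was 0.77. Malat1-201 had none, Neat1-201 had 4, and Meg3-209 and Snhg11-201 had 1 each.

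Levels in TPM, a share of the library corrected for transcript length, put Malat1 far above the rest. Malat1 (ENSMUSG00000092341.3, chr19:5795690-5802672) stood at 4776 TPM in replicate 2, against 2936 TPM in replicate 1. Meg3 (ENSMUSG00000021268.17, chr12:109541001-109571726) stood at 1009.8 TPM in replicate 2, against 624 TPM in replicate 1. Rian (ENSMUSG00000097451.10, chr12:109603940-109661716) stood at 524 TPM in replicate 2, against 441 TPM in replicate 1. These were the 13th, 57th and 118th highest genes by mean TPM. Snhg11 (ENSMUSG00000044349.15, chr2:158375638-158386145), which the annotation classes as protein-coding, had 272 TPM in replicate 2, against 180 TPM in replicate 1. Miat (ENSMUSG00000097767.8, chr5:112213228-112229395) had 85.3 TPM in replicate 2, against 38.4 TPM in replicate 1. All 5 of these genes were higher in replicate 2. The authors' quantification also gave credibility bounds, limits for each value. Bounds that are apart do not mean a large difference, since those of Rian were apart at a fold of 1.10. The share of all genes with bounds apart was not taken.

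Mirg, Pantr1 and Neat1 were the low end of the group. Mirg (ENSMUSG00000097391.8, chr12:109729764-109749460) had 47.9 TPM in replicate 2, against 33.0 TPM in replicate 1. Pantr1 (ENSMUSG00000060424.14, chr1:42590782-42694842) had 34.6 TPM in replicate 2, against 37.1 TPM in replicate 1. Neat1 (ENSMUSG00000092274.3, chr19:5824708-5845478) had 27.1 TPM in replicate 2, against 14.4 TPM in replicate 1. Pantr1 was the only member lower in replicate 2, and its bounds overlapped, from 31.1 to 39.8 TPM in replicate 2 and from 33.6 to 44.4 TPM in replicate 1. Mean levels were 226 ± 64.99 TPM for Snhg11, 61.8 ± 33.2 for Miat, 483 ± 59.2 for Rian, 40.5 ± 10.6 for Mirg, 35.8 ± 1.81 for Pantr1 and 20.8 ± 8.95 for Neat1 (SD, n = 2 animals). Over both libraries the order was Malat1, Meg3, Rian, Snhg11, Miat, Mirg, Pantr1, Neat1. The ranges of Miat and Mirg overlapped, as did those of Mirg and Pantr1, so these neighbours were not apart beyond the spread between animals. The ranges of all other neighbours in the order were apart.

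**Figure D1:**
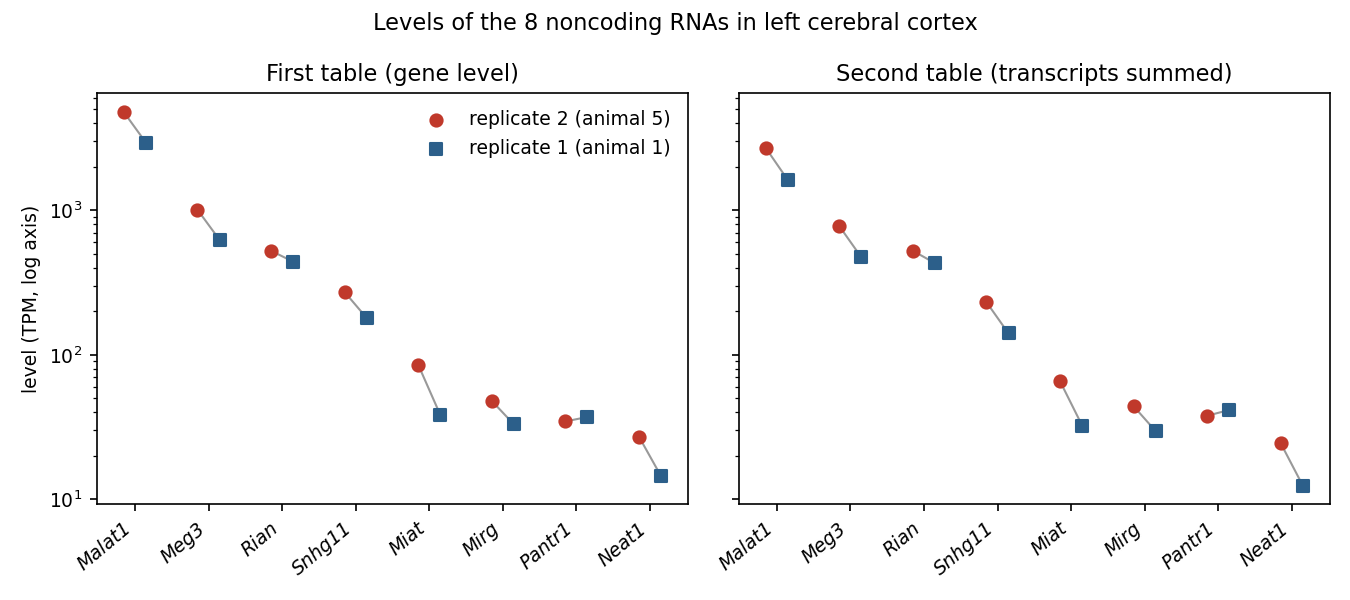
Level of each of the 8 noncoding RNAs in TPM (log axis) in replicate 2 (circles, left) and replicate 1 (squares, right), from the first table on the left and the second on the right. Of the 8 RNAs, 7 stand higher in replicate 2 in the first table, and Pantr1 is the exception.

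The libraries held 30166261 counts on annotated genes in replicate 2, against 28252339 in replicate 1, so the members rest on unequal depth. For scale, 3 counts on a feature with an effective length of 1000 nt amount to 0.16 TPM in replicate 2, against 0.17 TPM in replicate 1, far under each member's gene level. Malat1 alone took 0.852% of the counts in replicate 2 and 0.511% in replicate 1. The 8 together took 1.24% in replicate 2 and 0.755% in replicate 1, or 372937 and 213271 counts. Markers of the labelled tissue were present in both libraries, and the log2 differences of 7 adult cortex genes ran from -0.55 (Neurod6) to 0.21 (Tbr1) around a median of 0.02. The cerebellar genes Gabra6, Pcp2 and Cbln3 summed to 0.41 TPM in replicate 2, against 0.17 TPM in replicate 1.

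Counts gave the differences more directly than TPM. Malat1 had 257042 expected counts (reads shared out by the authors' model) in replicate 2, against 144254 in replicate 1. After scaling by TMM factors, which centre most genes near no difference, its log2 difference, replicate 2 minus replicate 1, was 0.70, or 1.62-fold. The exact counting interval of that fold ran from 1.61 to 1.63, and it covers counting error only, not the spread between animals or libraries. Neat1 had 2295 counts in replicate 2, against 1289.5 in replicate 1, a log2 difference of 0.69. The speckle RNA and the paraspeckle RNA lie 22035 nt apart on the chromosome. Their folds were close by these counts, but the deposited TPM gave log2 ratios of 0.70 for Malat1 and 0.91 for Neat1.

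Miat had 9271 counts in replicate 2, against 4588 in replicate 1, a log2 difference of 0.88 and the largest of the 8. Its fold was 1.84, with a counting interval from 1.77 to 1.90. Snhg11 had 25195 counts in replicate 2, against 14550 in replicate 1, a log2 difference of 0.66. These 4 RNAs come from 3 chromosomes.

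The maternally expressed RNAs of chromosome 12 did not stand at one fold. Meg3 had 62776 counts in replicate 2, against 35296 in replicate 1, a log2 difference of 0.69. Mirg had 1503 counts in replicate 2, against 978 in replicate 1, a log2 difference of 0.48. Rian, which lies between them on the same strand, had 14531 counts in replicate 2, against 11992 in replicate 1, a log2 difference of 0.14. The counting interval of the fold was 1.597 to 1.639 for Meg3, 1.29 to 1.52 for Mirg and 1.08 to 1.13 for Rian. These 3 intervals did not overlap, but they cover counting error only, not the spread between animals or libraries. Pantr1 had 324 counts in replicate 2, against 323 in replicate 1, a log2 difference of -0.13 whose fold interval, 0.78 to 1.07, includes no difference.

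By the rule of 1.5-fold, 5 of the 8 stood higher in replicate 2 (Malat1, Neat1, Miat, Snhg11 and Meg3), against 3.7% of the 14122 genes averaging 50 counts or more. None of the 8 stood over 1.5-fold lower, against 2.34% of those genes. None passed 2-fold higher, against 0.623%, although Miat did so with spike-in scaling (a log2 difference of 1.15) and by its deposited TPM (also 1.15). The median log2 difference was 0.67 over the 8 and -0.02 over all genes. Because the 8 were chosen with these libraries known, nothing is read from these shares. Scaling on the ERCC spike-ins, synthetic RNAs added to each library, moved the median of all genes to 0.25, the median of the 8 to 0.95 and the number over 1.5-fold higher to 6, against 11.6% of all genes. Under that scaling Pantr1 turned to 0.14. In bulk tissue, more cells that express an RNA and more of that RNA in each cell cannot be told apart.

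**Figure D2:**
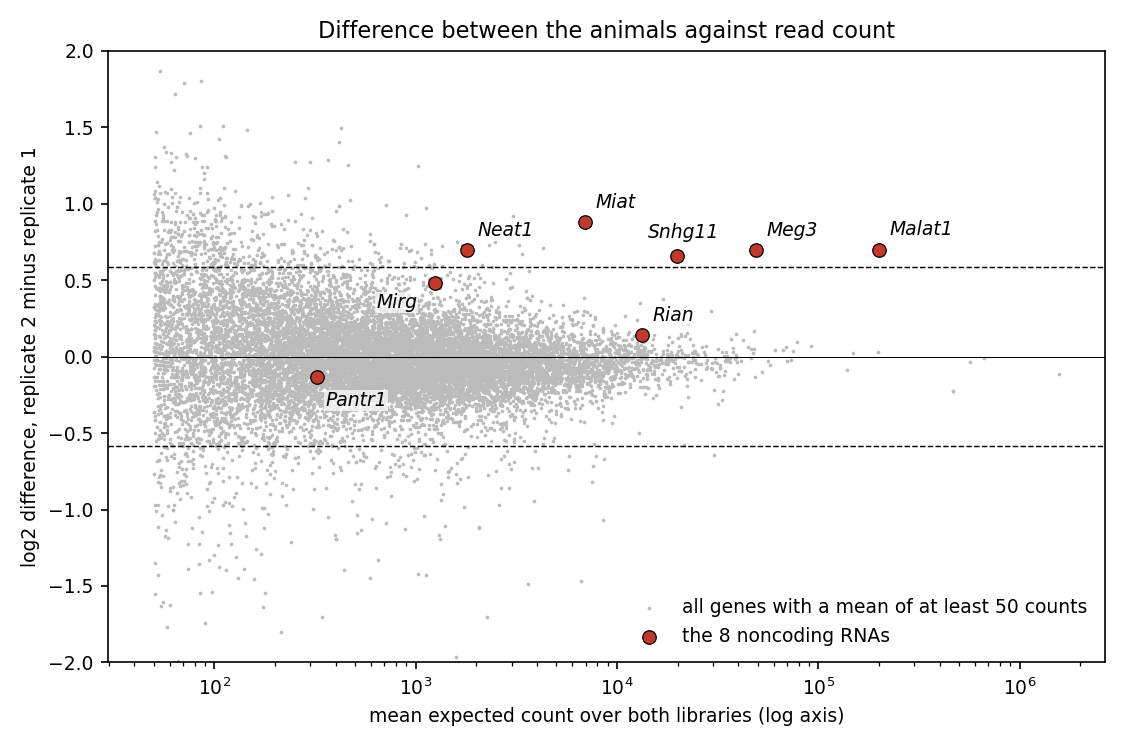
Log2 difference, replicate 2 minus replicate 1, against mean expected count (log axis) for genes averaging 50 counts or more (grey) and the 8 noncoding RNAs (red), with dashed lines at 1.5-fold; 31 genes lie outside the plotted range. Miat, Malat1, Meg3 and Snhg11 lie above all grey points of similar count.

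The 4 most abundant of the 5 stood at the top of the highly counted genes. Among the 1060 genes averaging 5000 counts or more, ordered by log2 difference, Miat, Malat1, Meg3 and Snhg11 took places 1 to 4, and Rian was at place 63. Because the members were chosen with their counts in these libraries known, the places are a description and nothing is read from them. The genes nearest to Malat1 outside the 8 were Abhd2 at 0.39, the neuronal transcription factor gene Mef2c at 0.38, Trank1 at 0.35, the splicing regulator gene Hnrnpl at 0.33 and the kinase gene Lmtk3 at 0.30. Likeness here is nearness of a single difference over 2 libraries, and no shared control is read from it. Mef2c, for scale, had 19875 counts in replicate 2, against 13923 in replicate 1.

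The transcript tables, 2 for each library, split each gene's reads among its annotated transcripts, which for these genes overlap heavily. The first transcript table has the RSEM column layout and the second the kallisto layout, and transcript values are from the first unless the second is named. Malat1-201 is the full-length transcript of 6983 nt in a single exon. It had 1765 TPM in replicate 2, against 1017 TPM in replicate 1 in the first table, 37.0% and 34.6% of the gene's TPM. It nevertheless held 89.1% of the gene's counts in replicate 2 and 88.0% in replicate 1. Malat1-202, Malat1-203 and Malat1-204 are spliced transcripts of 556, 485 and 656 nt lying within the span of Malat1-201. Malat1-202 had 1419 TPM in replicate 2, against 910 TPM in replicate 1, and Malat1-204 had 1285 TPM in replicate 2, against 864 TPM in replicate 1. A large share of the Malat1 level in TPM was thus assigned to transcripts of 656 nt or less that held few of its counts.

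The tables disagreed on those short transcripts. Malat1-203 had 306 TPM in replicate 2, against 144.7 TPM in replicate 1 in the first table, but 0.78 and 0.38 TPM in the second. In the second table Malat1-201 took 96.5% of the gene's estimated counts in replicate 2 and 96.1% in replicate 1, and 59.0% and 56.8% of its TPM. Malat1 as a whole had 2702 TPM in replicate 2, against 1621 TPM in replicate 1 there, so the first table's mean was 1.78 times the second's, although the second gave it more counts (276995 in replicate 2, against 155628 in replicate 1). The effective length of Malat1-203 was 385 nt in the first table and 237 nt in the second. The difference between the animals hardly depended on this, at 0.70 in the first table and 0.68 in the second. The deposited gene TPM of Malat1, Snhg11, Meg3 and Rian lay above its own upper credibility bound in both libraries, so those bounds do not bracket the printed level. For Malat1 they ran from 4551 to 4654 in replicate 2 and from 2784 to 2865 in replicate 1.

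Neat1-202, the short form of 3004 nt, led its gene with 22.8 TPM in replicate 2, against 12.3 TPM in replicate 1, 84.3% and 85.3% of the gene's TPM. Neat1-201, the long form of 20771 nt that builds paraspeckles, had 2.62 TPM in replicate 2, against 1.69 TPM in replicate 1. Its length brought it 1022 counts in replicate 2, against 635 in replicate 1, against 1251 and 649.5 for Neat1-202. The short form lies within the 5′ part of the long form, so reads there fit both, and the split between them is the model's. The log2 difference was 0.55 for Neat1-201 and 0.81 for Neat1-202. Neat1-203 was listed at 0 in replicate 1 in both tables, and in replicate 2 it had 0.54 TPM in the first table and 3.52 TPM in the second. With it the share of Neat1-202 in the second table was 75.9% in replicate 2 and 87.8% in replicate 1.

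Miat-201, of 8758 nt and 7 exons, carried 52.6 TPM in replicate 2, against 26.9 TPM in replicate 1, 61.7% and 70.0% of the gene's TPM and 92.7% and 92.0% of its counts. Miat-202, of 747 nt, had 16.96 TPM in replicate 2, against 5.16 TPM in replicate 1, from 207 and 60.6 counts. The second table gave Miat-202 188 counts in replicate 2, against 88.2 in replicate 1, a smaller ratio. Miat-205, the longest form at 9163 nt, had 2.41 TPM in replicate 2, against 1.74 TPM in replicate 1 with overlapping bounds. Miat-206, of 357 nt, had 9.55 TPM in replicate 2, against 3.03 TPM in replicate 1 with overlapping bounds, but 0 in both libraries in the second table. In counts the high value of Miat in replicate 2 was therefore carried mainly by Miat-201, whose last exon holds the ACTAAC stretch shown above. In TPM the short forms took a larger share of Miat in replicate 2 in the first table.

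Snhg11-201, of 5864 nt, had 220 TPM in replicate 2, against 130 TPM in replicate 1, or 94.8% and 93.4% of the gene's counts. Snhg11-202, annotated as retaining an intron, had 13.5 TPM in replicate 2, against 6.86 TPM in replicate 1. The remaining 3 Snhg11 transcripts had log2 differences of -0.44 for Snhg11-203, -0.08 for Snhg11-204 and -0.39 for Snhg11-205, with overlapping bounds for each. The second table turned 2 of these round, with 52.5 counts in replicate 2, against 24.98 in replicate 1, for Snhg11-203 and 46.2 in replicate 2, against 23.6 in replicate 1, for Snhg11-204. Snhg11-201 and Snhg11-202 were higher in replicate 2 in both tables, and the direction of Snhg11-203 and Snhg11-204 depends on the table.

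Meg3-209, of 14548 nt, held 79.6% of the gene's counts in replicate 2 and 78.9% in replicate 1, at 183 and 106 TPM. Meg3-203, of 457 nt, had the highest TPM, 319 in replicate 2, against 209 in replicate 1. In the first table all 11 Meg3 transcripts had log2 differences above 0, from 0.11 for Meg3-204 to 1.16 for Meg3-206. The median over the 11 was 0.71, close to the 0.69 of the gene as a whole. The second table gave Meg3-204 only 40.9 counts in replicate 2, against 198 in replicate 1, Meg3-211 near 0 in replicate 2, against 41.7 in replicate 1, and Meg3-208 0 in both. The direction of these minor Meg3 transcripts thus depends on the table.

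Rian-202, of 2355 nt and 11 exons, led with 169 TPM in replicate 2, against 149 TPM in replicate 1. Rian-213 followed with 108 TPM in each library, at a log2 difference of -0.09. Rian-204 stood out with 34.2 TPM in replicate 2, against 11.2 TPM in replicate 1, from 522 and 165 counts, but the second table gave it 754 counts in replicate 2, against 444 in replicate 1. Rian-219, a single-exon transcript of 1501 nt, had 500.3 counts in replicate 2, against 214 in replicate 1, and the second table gave 474 and 202. Across the 14 Rian transcripts with at least 50 counts the log2 differences ran from -0.15 to 1.52 around a median of 0.26.

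Mirg-201 led the microRNA host with 14.4 TPM in replicate 2, against 9.36 TPM in replicate 1, and the 6 Mirg transcripts with at least 50 counts had log2 differences from 0.29 to 0.77. The reads of Pantr1 could not be divided steadily. Pantr1-209 had 56.4 counts in replicate 2 and was listed at 0 in replicate 1, Pantr1-207 was listed at 0 in replicate 2 and had 44.1 counts in replicate 1, and the bounds of all 12 Pantr1 transcripts overlapped between the libraries. Pantr1-212 had 6.19 TPM in replicate 2, against 13.1 TPM in replicate 1 in the first table. Pantr1-202, the highest by mean TPM there, was steady at 10.37 TPM in replicate 2, against 10.39 TPM in replicate 1. The second table gave Pantr1-202 2.47 TPM in replicate 2, against 5.54 TPM in replicate 1. Only the summed level of Pantr1 is therefore described here.

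Over all 8 genes, 48 transcripts had a mean of at least 50 counts. Of these 20 stood over 1.5-fold higher in replicate 2, against 14.3% of the 28495 transcripts with as many counts, and 1 (Pantr1-212) stood over 1.5-fold lower, against 11.2%. Of all 74 transcripts, 8 were listed at 0 in both libraries in the first table and 11 in the second. The GC content of the transcript with the most counts was 42.5% for Malat1-201, 54.9% for Miat-201, 44.9% for Snhg11-201 and 49.1% for Meg3-209. It was 42.04% for Rian-202 and 47.7% for Mirg-201, and it was not read for Neat1 and Pantr1. The part of GC content in the differences was not tested.

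**Figure D3:**
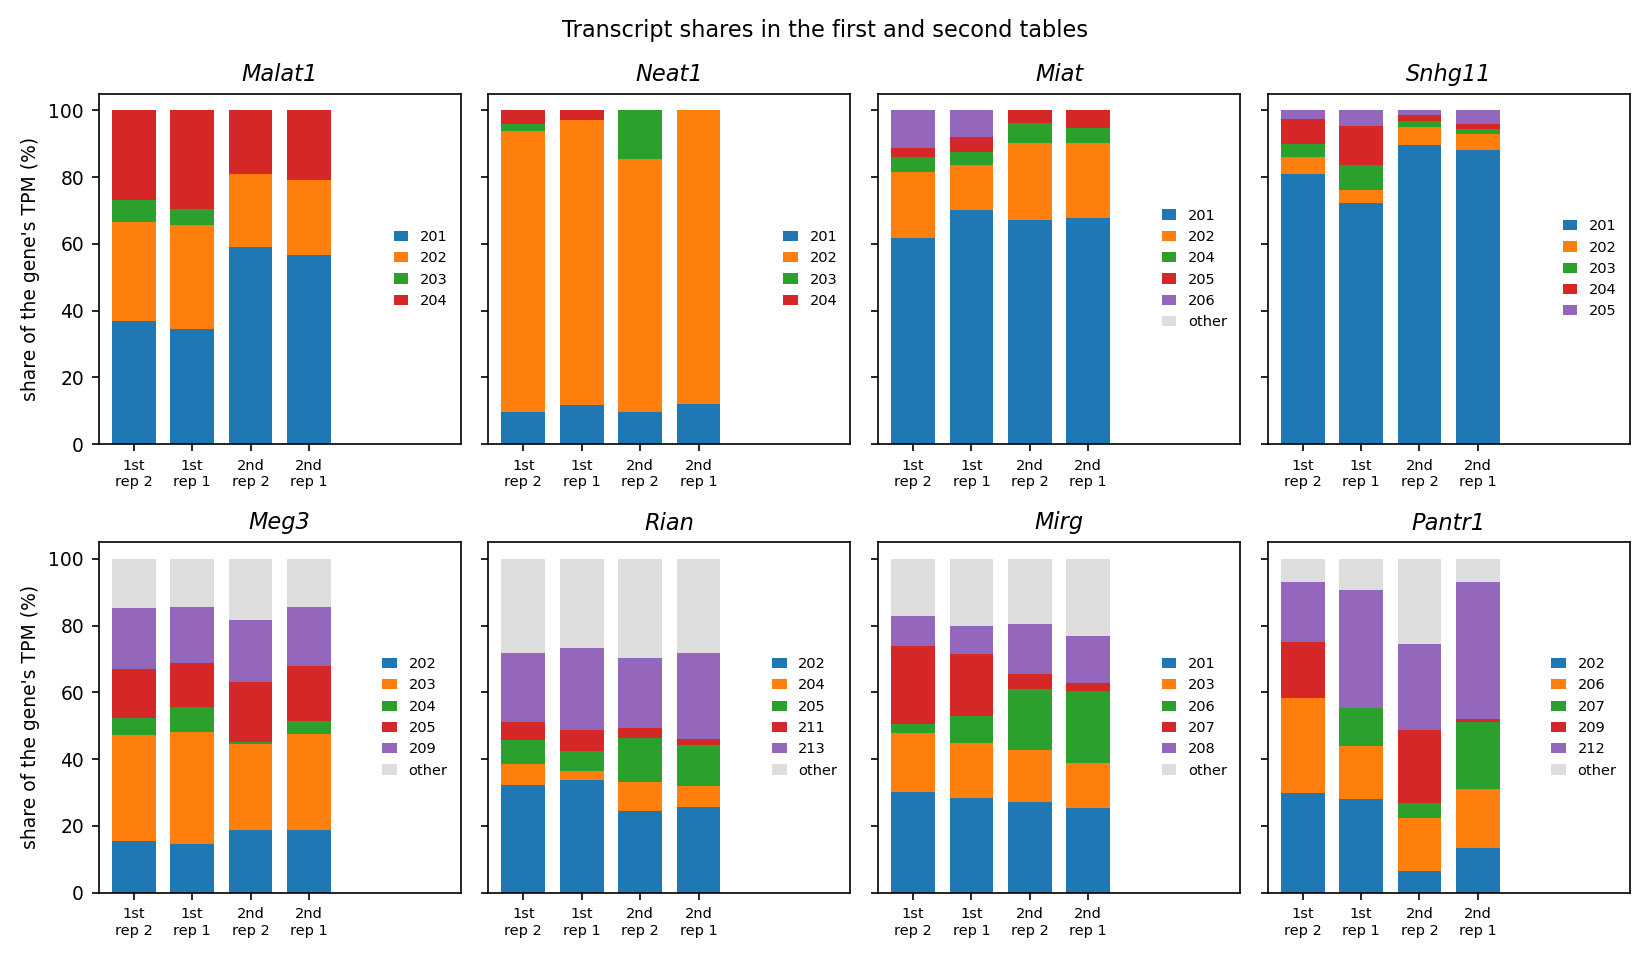
Share of each gene's TPM in its annotated transcripts, as bars for the first table (1st) and second table (2nd), with replicate 2 left of replicate 1 in each pair; the 5 transcripts with the highest share are coloured and the rest are grey. Malat1-201 takes 37.0% and 34.6% in the first table and 59.0% and 56.8% in the second, and the Pantr1 bars differ between libraries.

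**Figure D4:**
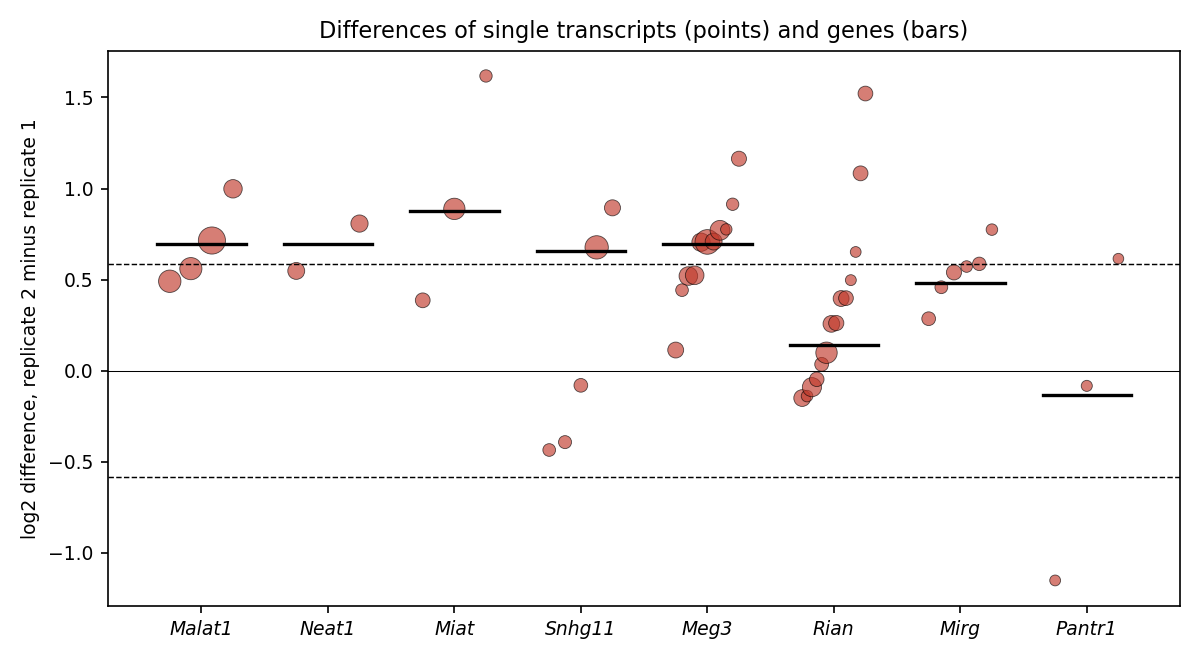
Log2 difference, replicate 2 minus replicate 1, of each transcript with a mean of at least 50 counts (points, larger for more counts) and of its gene (black bars), with dashed lines at 1.5-fold. Values are from the first table, in which all 11 Meg3 points lie above 0, while the Snhg11 and Rian points spread from below 0 to above 1.5-fold.

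The genes nested inside the members were mostly out of reach of these tables. Of 21 microRNA genes inside the 8 loci, 20 had an effective length of 0 in the gene table. So had 13 of 15 snoRNA genes, and these were all 13 inside Rian. No microRNA of Mirg and no snoRNA of Rian is therefore given. The remaining microRNA gene, Mir1188 inside Rian, had 7 counts in replicate 2, against 5 in replicate 1. The snoRNA gene Gm25129 inside Snhg11 had 31 counts in replicate 2, against 23 in replicate 1. Gm27627, a misc_RNA entry of 150 nt on the strand of Miat that overlaps the repeat stretch shown above, had 71.0 counts in replicate 2, against 20.6 in replicate 1, and these reads cannot be told from Miat. Gm26945, a lincRNA entry inside Rian, had 232 counts in replicate 2, against 264 in replicate 1. On the opposite strand, the entry inside Malat1 had 4 counts in replicate 2, against 0 in replicate 1, and those inside Meg3 and Pantr1 had 0 in both.

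The protein-coding genes around the members had differences near 0 or below it. Frmd8, beside Neat1, had a log2 difference of -0.18. Ralgapb beside Snhg11 had -0.05, and Pou3f3, the transcription factor gene 926 nt from Pantr1, had -0.21. Cryba4 beside Miat had 3 counts in replicate 2, against 4 in replicate 1. In the Dlk1-Dio3 domain Dlk1, a Notch-like membrane protein gene, had 274 counts in replicate 2, against 365 in replicate 1, a log2 difference of -0.55. Rtl1, a retrotransposon-derived gene, had 13 counts in replicate 2, against 38 in replicate 1, and Dio3, the thyroid hormone-inactivating deiodinase gene, had 18 counts in replicate 2, against 61 in replicate 1. The paternally expressed genes thus lay lower in replicate 2 while Meg3, Mirg and Rian lay higher, but Rtl1 and Dio3 are under a mean of 50 counts. Of the genes listed for this region, 4 were over that mean (Dlk1, Begain, Wdr25 and Wars), and only Dlk1 is among the paternally expressed genes named here. Of these 4, 3 had negative differences and none passed 1.5-fold.

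Each gene start was also read for a cAMP response element. A link between this sequence and the differences was not tested. The window runs from 250 bases before to 50 after the start in RefSeq (GRCm38.p6), and 6 of the 8 genes matched a window. Meg3 had 2 windows, and the one covering its annotated gene start held the palindrome TGACGTCA, in capitals below, which 1.79% of 32851 windows hold.
Meg3, chr12:109540746-109541045 (GRCm38.p6, plus strand): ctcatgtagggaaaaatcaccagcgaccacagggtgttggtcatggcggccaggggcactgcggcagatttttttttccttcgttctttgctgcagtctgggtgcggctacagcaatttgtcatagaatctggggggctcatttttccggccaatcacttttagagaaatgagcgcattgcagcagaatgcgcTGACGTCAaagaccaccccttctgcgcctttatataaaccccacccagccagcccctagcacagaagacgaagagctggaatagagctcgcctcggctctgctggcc
The shorter TGACG, sought on both strands and contained in the palindrome, occurred 3 times in the Malat1 window, and 20.8% of windows hold it at least once. No match was found in the other Meg3 window or in the windows of Snhg11, Miat, Rian and Mirg. A match is a string of letters here, not a measured binding site.

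The protein partners of the nuclear bodies gave a mixed picture. Of 11 paraspeckle proteins none passed 1.5-fold, with a median log2 difference of 0.01, and 6 differences were positive and 5 negative. Sfpq, which binds Neat1, had 2968 counts in replicate 2, against 3966 in replicate 1, a log2 difference of -0.55. Of 12 nuclear speckle protein genes 1 passed 1.5-fold, the splicing factor gene Srsf5 at 0.73. The scaffold genes Srrm2 and Son stood at 0.13 and 0.08. The genes of the Miat-binding proteins, Qk, Celf3 and Sf1, stood at -0.14, 0.13 and -0.14. The median of the speckle protein genes was 0.05 and that of the Miat-binding protein genes was -0.14.

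Other long noncoding RNAs of brain did not all share the members' difference. Of 15 measured, 2 stood over 1.5-fold higher, the snoRNA hosts Snhg17 at 0.71 and Snhg1 at 0.60, and the median was 0.16. For scale, 3.7% of all 14122 genes compared stood over 1.5-fold higher. Outside the members, so did 10.4% of lincRNA genes, 19.4% of processed transcripts and 18.9% of antisense genes. No test was run on these shares. The abundant Snhg14 had 777 TPM in replicate 2, against 689 TPM in replicate 1, a log2 difference of 0.10. Xist, which coats the inactive X chromosome, stood at 0.16, the imprinted Peg13 at -0.01 and the snoRNA host Gas5 at 0.24. Miat, at 0.88, was above all 15, while Snhg17 stood at about the value of Malat1, Neat1 and Meg3 in the first table but not in the second.

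Other measures of the libraries were read beside the members, and they did not all go the same way. Transcripts annotated as retaining an intron took 3.07% of counts in replicate 2 and 2.51% in replicate 1, and 30.2% of 3602 such transcripts stood over 1.5-fold higher, against 11.0% of 20888 protein-coding ones. Choroid plexus genes were lower in replicate 2, summing to 57.9 TPM there and 177 TPM in replicate 1 over Ttr, Kl and Folr1. Folr1 had 3 counts in replicate 2, against 35 in replicate 1. Median log2 differences were -0.09 for 3 astrocyte genes, 0.01 for 3 oligodendrocyte genes, -0.04 for 3 microglial genes and -0.21 for 2 endothelial genes. The part of intron-retaining RNA, choroid plexus tissue, depth or the dissection in the members' differences was not tested.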

How the data were processed

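Total RNA was measured in 2 libraries of 1 group. Build mm10 and annotation GENCODE M21 are named in the deposited readme. Aligner, quantifier and their versions, and the strand setting of the counting, were not given in the sources used here. Antisense and overlapping genes are therefore uncertain. The authors deposited expected counts (reads shared out by a model, not normalized), TPM and FPKM per gene and transcript, and estimated counts and TPM in a second transcript table. Each transcript's percent of its gene's TPM is given per the file headers. Credibility bounds and posterior SDs are deposited scores of unstated level. Reads of CAST/EiJ sequence may map less well to the reference, and alleles were not analysed here.

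Members and lists were chosen with earlier results of these data known. Expected counts were rounded, scaled by TMM in edgeR 4.0.16 (R 4.3.3) and turned into log2 CPM with a prior count of 1. Genes averaging 50 counts or more were compared, and those over 1.5-fold were called. The calculation was tested on simulated data. Counting intervals are exact binomial (Clopper-Pearson) at 95% on the split of counts. DESeq2 1.42.0 size factors, totals, spike-ins, TPM, the second table and a prior count of 5 were alternatives. All 8 members are named. Named transcripts have at least 5% of the member's TPM in any library and table, and others named were chosen after their values were seen. List genes are named for the highest TPM or largest difference.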

Additional observations from a re-analysis of the deposited data

How the results depend on the processing

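Of 48 values of the members' log2 differences under the 6 other scalings, tables and prior counts, 47 had the same direction. The exception was Pantr1 under spike-in scaling, 0.14 against -0.13. The number over 1.5-fold higher was 5 under DESeq2 size factors, total counts, TPM ratios, the second table and a prior count of 5. It was 6 under spike-in scaling, and it was 0 with 2-fold in place of 1.5-fold, where Miat alone passed if spike-in scaling or TPM ratios were used. The median of the 8 was 0.95 under spike-in scaling, where the median of all genes was 0.25. Effective library sizes had a ratio (replicate 2 over replicate 1) that was 0.908 by spike-ins and 1.10 by TMM, and the cause was not tested. With either library left out no difference exists, and levels are then the values of the other library. In the second table Pantr1 stood above Miat in replicate 1. No paired analysis was possible because there is 1 group. Transcript values rest on the models' split of shared reads at high counts too: Malat1-203 had 2222 counts in replicate 2 in the first table and 4.59 in the second, and Meg3-206 had 551 and 4477.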

Other observations

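A larger share of genes stood over 1.5-fold higher in replicate 2 in the noncoding classes below than among protein-coding genes, and no test was run. Outside the 8 members and among genes averaging 50 counts or more, these were 20 of 192 lincRNA genes (10.4%), 25 of 129 processed transcripts (19.4%), 20 of 106 antisense genes (18.9%), 54 of 393 TEC genes (13.7%, still to be experimentally established) and 361 of 12826 protein-coding genes (2.81%). Median log2 differences were 0.07, 0.17, 0.18, 0.05 and -0.03 in that order. The hosts of the neuronal microRNA miR-124, named after their values were seen, were also higher. Mir124a-1hg had 3531 counts in replicate 2 and 2350 in replicate 1, and Mir124-2hg had 1583 in replicate 2 and 1053 in replicate 1, at log2 differences of 0.45 each. The noncoding RNAs Rn7sk (0.02), Gm26917 (-0.04), C230004F18Rik (0.05) and 2900097C17Rik (0.02) were near 0, and they too were named after their values were seen.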
